A study of Mus musculus with 2 samples.

Results

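Skeletal muscle of the limb forms from progenitors that leave the somites, and 9 genes that regulate this lineage were read here: Pax3, Pax7, Lbx1, Six4, Myf5, Myod1, Myog, Myf6 and Msc. They were taken by name from the 43346 mouse gene rows of the expression tables, and all 9 had a row. RNA with poly(A) tails came from limbs of C57BL/6J mouse embryos at 14.5 days, with no treatment or genetic change named in the labels. The only group holds 2 libraries, called replicates 1 and 2, each from pooled male and female littermates. The labels do not say whether 2 litters were used or which limbs were taken, so variation between these samples may be technical. Adjusted p-values here come from an exact binomial test on counts. They cover counting error only, not how samples vary. No conditions can be compared, and the data give the level of each gene, the order of the levels, the transcripts of each gene and the difference between the libraries.

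Pax3 and Pax7 are paired-box factors of muscle progenitors, Pax3 acting mainly in the migrating embryonic cells and Pax7 in later fetal progenitors and satellite cells. Lbx1 is a homeobox gene of progenitors that migrate into the limb, and Six4 encodes a homeobox factor that works with Eya cofactors upstream of the myogenic genes. Myf5, Myod1, Myog and Myf6 are the basic helix-loop-helix (bHLH) factors of muscle: Myf5 and Myod1 commit cells to the lineage, Myog drives their differentiation, and Myf6 (also called MRF4) acts in both commitment and differentiated fibres. They pair with E proteins and bind E-boxes in muscle genes. Msc encodes musculin, a related bHLH protein that represses E-box targets and is made in early muscle precursors.

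The bHLH genes are similar in sequence, which matters for assigning reads to them. The longest exact stretches shared between Myf5 and Myod1 and between Myod1 and Myog in the GENCODE M21 transcripts lie in the bHLH coding region, in exon 1 of 3 of each gene, and are shown to make that similarity visible. The first is at chr10:107485654-107485679 in Myf5 and chr7:46377003-46377028 in Myod1, and encodes part of the DNA-binding basic region. The second is at chr7:46377042-46377062 in Myod1 and chr1:134290341-134290361 in Myog (GRCm38, transcript strand, no capitals used).
Myf5 and Myod1: cgcaaggccgccaccatgcgcgagcg
Myod1 and Myog: aaagtgaatgaggccttcgag
These runs are 26 and 21 bases long. The longest runs of the other pairs of muscle bHLH genes were 12 to 14 bases, and Pax3 and Pax7 shared a coding run of 26. Of the windows of 100 bases, about the length of a read, in the leading transcripts of the 9 genes, none was found in a transcript of another gene except in Msc, where 438 of 1642 windows matched the antisense gene Gm9947 on the opposite strand. Gm9947 had 31 and 30 counts, against 3443 and 3380 for Msc. The windows came from GENCODE M21, while the deposited counts used annotation M4, in which some of these transcripts differ in length. Only exact matches were searched. All 9 genes and Gm9947 had whole expected counts in both libraries (to within 0.005 for the 9), where reads split between genes would leave fractions.

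The 9 genes spanned 264-fold in mean TPM (a level scaled for transcript length and library size). Myog was highest and Pax3 lowest, and 8 of 9 reached 1 TPM in both libraries, a level that 62.8% of the 21474 protein-coding genes reached. Because whole limb was sampled, fewer cells of a type and less RNA per cell cannot be told apart. Gene rows held 110172148 counts in replicate 1 and 103363136 in replicate 2. The annotated length exceeded the effective length by 198.9 nucleotides in replicate 1 and 226.1 in replicate 2.

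**Figure D1:**
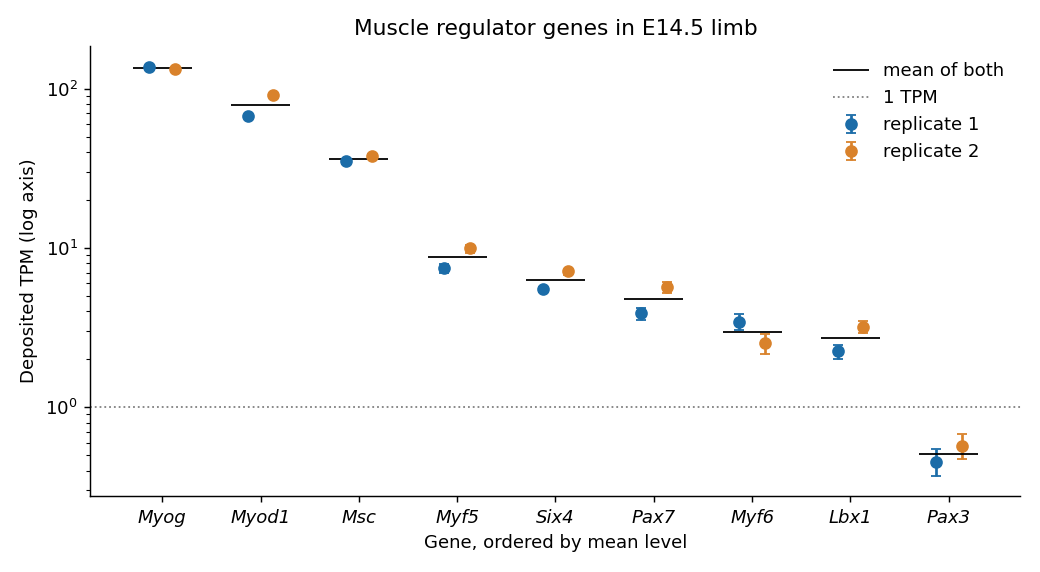
Deposited TPM on a log axis for each of the 9 genes in replicate 1 (blue) and replicate 2 (orange), with the authors' credibility interval as bars and the mean of both as a line. Myog, Myod1 and Msc stand above 30 TPM in both libraries, and only Pax3 is below 1 TPM.

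Among the progenitor factors, Six4 was highest and Pax3 lowest. Six4 (ENSMUSG00000034460.9, chromosome 12, 73099609 to 73113456, minus strand) had 5.51 TPM in replicate 1 and 7.13 in replicate 2, from 2576 and 3087 counts. Its mean was 6.32 ± 1.15 TPM (SD, n = 2), rank 10555 among protein-coding genes. Pax7 (ENSMUSG00000028736.9, chromosome 4, 139737062 to 139833528, minus strand) had 3.89 and 5.71 TPM from 1312 and 1434 counts, a mean of 4.80 ± 1.29 TPM (SD, n = 2). Its coefficient of variation of 26.8% was the largest of the 9 genes.

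Lbx1 (ENSMUSG00000025216.9, chromosome 19, 45232684 to 45235812, minus strand) had 2.24 and 3.21 TPM from 384 and 506 counts, a mean of 2.73 ± 0.686 TPM (SD, n = 2). Lbx1 also marks neurons of the dorsal spinal cord, and 3 of 6 spinal cord neuron genes were detected. Lmx1b had 23.5 and 32.7 TPM, Isl1 3.69 and 2.96 TPM and Snap25 1.59 and 1.11 TPM, while Elavl3 had 0.50 and 0.35 TPM, Pax2 0.04 and 0.08 TPM and Tlx3 0.06 and 0.08 TPM. Lmx1b is also a gene of dorsal limb mesenchyme, and the part of these cells in the Lbx1 level was not tested. Pax3 (ENSMUSG00000004872.11, chromosome 1, 78101267 to 78197134, minus strand) had 0.45 and 0.57 TPM from 114 and 126 counts, a mean of 0.510 ± 0.0849 TPM (SD, n = 2). At 32.6% of protein-coding genes with a lower level, it was the only one of the 9 under 1 TPM in either library. Pax3 is also a gene of melanoblasts and Schwann cell precursors. The 6 melanoblast markers summed to 8.69 and 8.91 TPM with 3 detected, the 6 Schwann precursor markers to 61.4 and 71.8 TPM with 6 detected, and their part in the Pax3 level was not tested.

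Within each library Pax7 stood 8.64 and 10 times above Pax3. All 4 progenitor factors had a higher TPM in replicate 2 than in replicate 1. The authors' credibility intervals of TPM for the 2 libraries overlapped for Pax3 (0.371 to 0.543 and 0.472 to 0.676 TPM) and not for Pax7, Lbx1 or Six4. Of the other 5 genes they overlapped for Msc alone.

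Of the factors that commit cells to muscle, Myod1 was far above Myf5. Myod1 (ENSMUSG00000009471.3, chromosome 7, 46376474 to 46379099, plus strand) had 67.0 and 91.2 TPM from 8316 and 10364 counts, a mean of 79.1 ± 17.1 TPM (SD, n = 2). Myf5 (ENSMUSG00000000435.1, chromosome 10, 107482908 to 107486134, minus strand) had 7.50 and 9.95 TPM from 1060 and 1290 counts, a mean of 8.73 ± 1.73 TPM (SD, n = 2). The ratio of Myod1 to Myf5 was 8.93 and 9.17 in the 2 libraries, so the pair kept nearly the same proportion while both were higher in replicate 2.

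The differentiation factor Myog (ENSMUSG00000026459.5, chromosome 1, 134289989 to 134292548, plus strand) had 136.78 and 132.13 TPM from 13296 and 11704 counts. Its mean of 134 ± 3.29 TPM (SD, n = 2) was rank 999 of the protein-coding genes, above 95.3% of them, and its coefficient of variation of 2.45% was the smallest of the 9. Myf6 (ENSMUSG00000035923.3, chromosome 10, 107492853 to 107494737, minus strand) had 3.44 and 2.52 TPM from 271 and 180 counts, a mean of 2.98 ± 0.651 TPM (SD, n = 2). Myog and Myf6 were the only members with a lower value in replicate 2.

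Of the summed TPM of the 4 muscle bHLH factors (214.7 and 235.8 TPM), Myog made up 63.7% in replicate 1 and 56.0% in replicate 2. Myod1 made up 31.2% and 38.7%, Myf5 3.49% and 4.22%, and Myf6 1.60% and 1.07%. The ratio of Myog to Myod1 was 2.04 in replicate 1 and 1.45 in replicate 2. Myf5 to Myf6 gave 2.18 and 3.95. Myf5 and Myf6 lie 6719 bases apart on the same strand, and their library difference ran in opposite directions.

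The repressor Msc (ENSMUSG00000025930.6, chromosome 1, 14753346 to 14755992, minus strand) was the third of the 9 genes, with 35.2 and 37.7 TPM. Its mean was 36.4 ± 1.78 TPM (SD, n = 2), between Myod1 and Myf5.

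The region before the start of Myog is shown because Myog was the highest of the 9, and the same stretch before Myf5 is shown beside it because that gene was lower in level and differed between the libraries the other way. The sequences are RefSeq's (GRCm38.p6, 5′ to 3′ on the gene's strand) at chr1:134289754-134289988 for Myog and chr10:107486150-107486384 for Myf5. They run from position -250 to -16, counted from the RefSeq start, and capitals mark motif matches.
Myog: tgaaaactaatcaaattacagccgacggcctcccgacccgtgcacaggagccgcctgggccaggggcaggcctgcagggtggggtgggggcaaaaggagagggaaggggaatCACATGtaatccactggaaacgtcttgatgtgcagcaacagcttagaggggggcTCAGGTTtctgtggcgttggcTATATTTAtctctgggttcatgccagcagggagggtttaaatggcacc
Myf5: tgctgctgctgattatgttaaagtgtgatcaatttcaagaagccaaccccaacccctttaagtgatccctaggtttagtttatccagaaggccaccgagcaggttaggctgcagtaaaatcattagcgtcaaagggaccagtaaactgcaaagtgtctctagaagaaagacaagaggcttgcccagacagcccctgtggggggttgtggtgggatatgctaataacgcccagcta
Motifs were searched on both strands of 300 bases, which begin at position -250 and reach past the start, in 32851 such regions. The Myog region held the E-box CANNTG at 2 places, CACATG from 138 to 133 bases before the start and CAGTTG from 12 to 7 before it. CAGTTG, at 134289992 to 134289997, lies past the printed stretch and inside Myog by its GENCODE start, 134289989. The region also held TCAGGTT, the core of the MEF3 site that the Six4 protein recognises, from 84 to 78 before the start. The core of the MEF2 site (TA, 4 bases of A or T, TA) was found once, as TATATTTA from 63 to 56 before the start. Of all regions, 72.3% held CANNTG, 4.07% TCAGGTT and 9.32% the MEF2 core. The Myf5 region held none of these, and a TATAAA (in 13.6% of regions) from 21 to 26 bases after the annotated start. The subtype CAGCTG, present in 16.3% of regions, was in neither. A match is only a string of letters, and its absence from a window says nothing about the factor. RefSeq's table also held Pax7 and Six4, so 4 of the 9 genes matched. Pax7 and Six4 were also below Myog and higher in replicate 2, and their motif matches were not listed. No link of a motif to a level was tested.

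To say which neighbours in the order of levels differed beyond their spread, gene levels were fitted with limma on log2(TPM + 1) over 15056 genes, and 95% intervals were taken for the 8 neighbouring pairs. From highest to lowest the order was Myog, Myod1, Msc, Myf5, Six4, Pax7, Myf6, Lbx1 and Pax3. Of the 8 neighbouring pairs 5 differed beyond the spread, and of all 36 pairs 33 did, or 26 with intervals widened for 36 pairs. Myog exceeded Myod1 by 0.77 on the log2(TPM + 1) scale (SE 0.217, 95% interval 0.23 to 1.32), with 1.02 and 0.53 in replicates 1 and 2. Myod1 exceeded Msc by 1.08 (0.56 to 1.60), and Msc exceeded Myf5 by 1.96 (1.48 to 2.42), the widest step in the order on this scale. Pax7 exceeded Myf6 by 0.54 (0.02 to 1.05), although the step was 0.14 in replicate 1 and 0.93 in replicate 2. Lbx1 exceeded Pax3 by 1.29 (0.80 to 1.78) on this scale, which shrinks the 5.34-fold ratio of their mean TPM.

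The pairs that did not differ beyond the spread were Myf5 and Six4 (log2 difference 0.41, 95% interval -0.07 to 0.89), Six4 and Pax7 (0.34, -0.16 to 0.85) and Myf6 and Lbx1 (0.10, -0.40 to 0.60). These intervals add the spread of both genes, so a shift between libraries that both genes share also counts as spread. Within replicates 1 and 2, Myf5 over Six4 was 0.38 and 0.43, and Six4 over Pax7 0.41 and 0.28. An interval that crosses 0 therefore does not show that the 2 levels are alike. Myf6 was above Lbx1 in replicate 1 and below it in replicate 2, and each of the other 7 neighbouring pairs kept its direction. With intervals widened for the 8 pairs, 3 remained beyond the spread: Myod1 over Msc, Msc over Myf5 and Lbx1 over Pax3. With intervals widened for all 36 pairs, an alternative added after seeing the data, Myod1 over Msc was lost too (-0.17 to 2.33). Without the filter on low values Pax7 over Myf6 was also lost (-0.19 to 1.26).

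**Figure D2:**
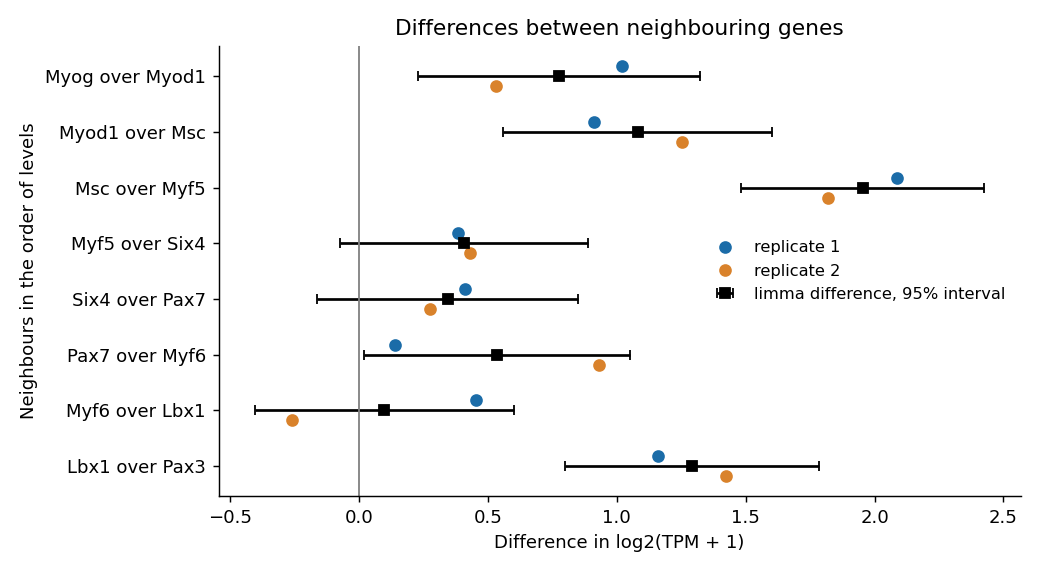
Difference in log2(TPM + 1) between neighbouring genes in the order of levels, with the limma estimate and its 95% interval (black) and the difference within replicate 1 (blue) and replicate 2 (orange). Intervals of 3 pairs cross 0, and the Myf6 and Lbx1 pair changes sign between the libraries.

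The 2 libraries were then compared gene by gene, to see which members differed between them by more than counting noise; this compares those libraries, not conditions. By an exact two-sided binomial test on counts, with Benjamini-Hochberg adjustment over 20396 genes, 6 members were higher in replicate 2 and 2 were lower. Of all genes tested, 30.3% were higher and 30.3% lower, or 60.6% in either direction. Being called is therefore common at this depth. Lbx1 had the largest ratio of the 9 on counts, 1.42-fold higher in replicate 2 (log2 ratio 0.51, counting interval 0.32 to 0.70, adjusted p = 4.48e-07, exact binomial). Myod1 was 1.35-fold higher (log2 0.43, 0.39 to 0.47, adjusted p = 8.37e-91, exact binomial), Myf5 1.32-fold and Six4 1.30-fold. Pax7 was 1.18-fold higher and Msc 1.06-fold higher. Myf6 was lower in replicate 2 (log2 ratio -0.48, -0.75 to -0.20, adjusted p = 0.00122, exact binomial), and Myog was lower by a small margin (log2 ratio -0.07). Pax3 was not called (log2 ratio 0.26, -0.11 to 0.62, adjusted p = 0.240, exact binomial).

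The median log2 ratio of the 9 was 0.26 and the median of its size 0.37, beside 0.0044 and 0.21 over the 15008 genes that averaged 1 TPM or more. Lbx1 lay at percentile 96.1 of those genes, Myod1 at 93.3, Myf5 at 91.6 and Six4 at 90.2, while Myf6 lay at 10.6 and Myog at 40.8. With the common dispersion of all genes (0.0364) in edgeR's exact test in place of counting noise alone, 0 of the 9 were called, where 1.05% of all genes were. That dispersion was estimated from these same libraries treated as a single group. The test therefore sets each gene against the spread between the libraries themselves, and cannot show that a gene is alike in both. None of the 9 had an unadjusted p under 0.05 in edgeR's exact test, the smallest being 0.209 for Lbx1. With plain count totals in place of TMM library sizes the call for Msc was lost (log2 ratio 0.07), leaving 7.

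**Figure D3:**
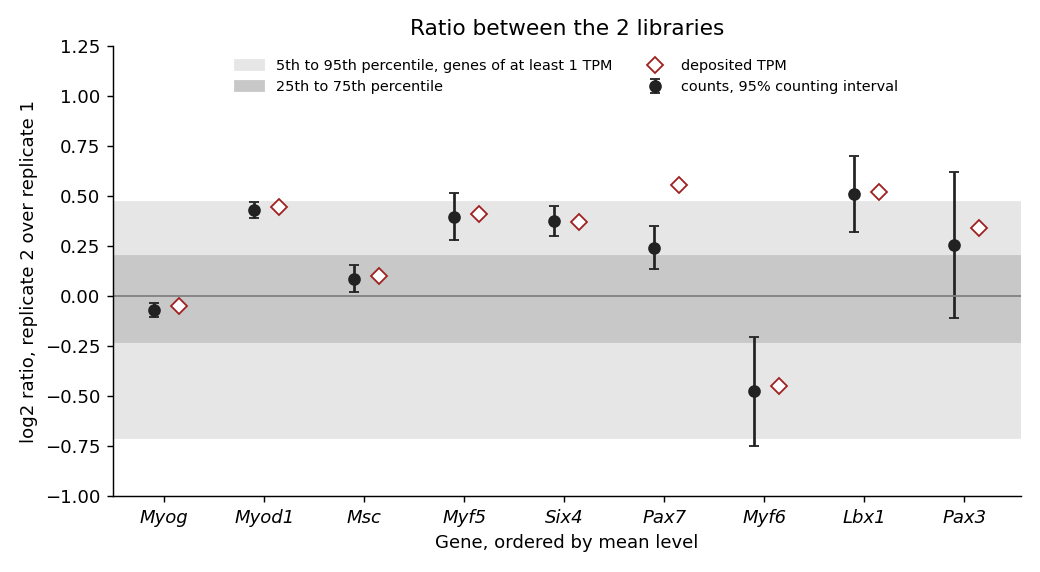
The log2 ratio of replicate 2 over replicate 1 for each gene, from counts with TMM library sizes (black, 95% counting interval) and from deposited TPM (open diamonds), over the percentile bands of genes that averaged 1 TPM or more. Myog and Myf6 lie below 0, and for Pax7 the TPM ratio of 0.55 stands apart from the count ratio of 0.24.

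For Pax7 the ratio depended on the unit, 0.24 on counts and 0.55 on TPM, and its 2 transcripts had different shares in the 2 libraries. Pax7-201 (5854 nucleotides) had 1188 and 1140 expected counts and 2.80 and 2.90 TPM in replicates 1 and 2. Pax7-202 (1725 nucleotides, starting and ending inside the first) had 124 and 294 expected counts and 1.08 and 2.81 TPM. The difference in deposited Pax7 TPM therefore lay almost wholly in the short form, whose share went from 27.9% in replicate 1 to 49.2% in replicate 2. How reads divide between the forms is an estimate, and its error was not assessed here. The effective length of the gene, which follows those shares, was 4502 and 3596 nucleotides.

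Pax3 had 3 annotated transcripts, and the leading one was not the same in the 2 libraries. Pax3-202 made up 64.7% in replicate 1 and 42.0% in replicate 2, and Pax3-201 28.2% and 56.9%. Behind these shares stood 79.5 and 60.5 expected counts for Pax3-202 and 27.2 and 64.2 for Pax3-201. The processed transcript Pax3-203 had 7.07% and 1.11%.

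Six4 and Msc kept their proportions. Six4-201 made up 93.9% and 92.8% of Six4. The full-length Msc-201 made up 67.8% and 68.7% of Msc, the retained-intron forms Msc-203 and Msc-202 17.8% and 17.4% and 11.5% and 10.5%, and Msc-204 2.88% and 3.40%. The other 5 genes, Lbx1, Myf5, Myod1, Myog and Myf6, had 1 transcript each in the tables.

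**Figure D4:**
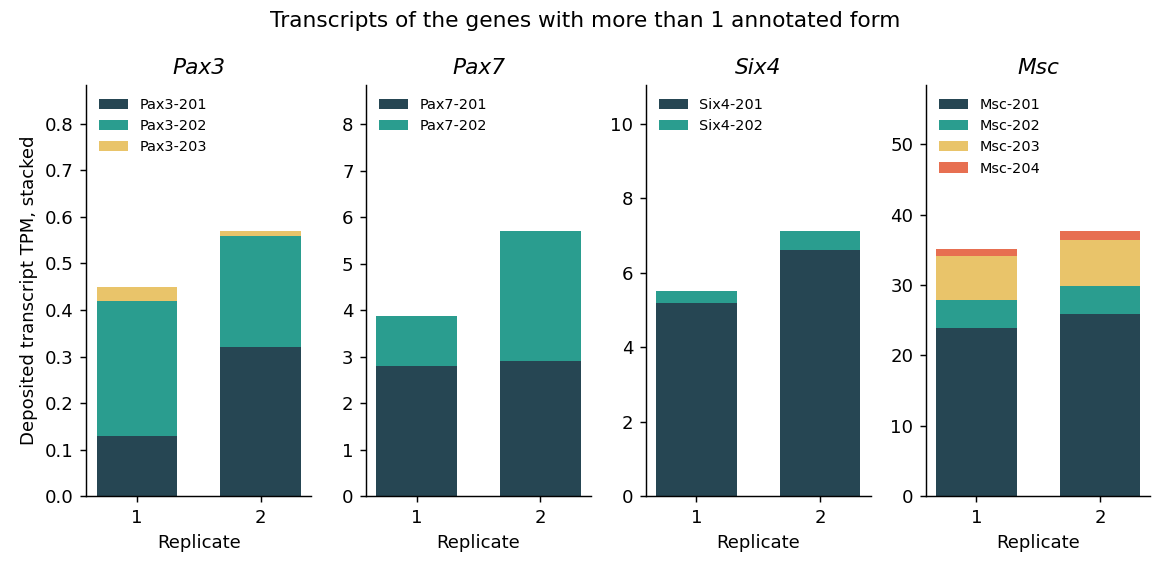
Deposited TPM of each annotated transcript, stacked for replicates 1 and 2, for the 4 genes with more than 1 form. Pax7-202 makes up the difference in Pax7 between the libraries, Pax3 changes its leading form, and Six4 and Msc keep their proportions.

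Other genes of the muscle pathway were read from fixed lists. Whole limb was sampled, so the levels of these genes need not come from muscle cells. Of 13 genes that act upstream of the bHLH factors or in progenitor migration, 12 were detected at 1 TPM in both libraries, led by the chemokine gene Cxcl12 at 171 ± 2.67 TPM and the homeobox gene Meox2 at 79.7 ± 9.02 TPM (SD, n = 2). In replicate 2, 8 of the 13 were higher and 2 lower (exact binomial, adjusted over all genes), with a median log2 ratio of 0.18, where 30.3% of all genes tested were called in each direction. Met, the receptor that migrating progenitors need, had 3.62 and 3.12 TPM, and its ligand gene Hgf 1.44 and 1.10 TPM. These were the 2 genes of the list that were lower in replicate 2, and were chosen after their values were seen.

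All 17 partners and inhibitors of the bHLH factors were detected, with a median of 127 TPM, above 8 of the 9 members. They were led by the inhibitors Id1 at 416 ± 65.6 TPM and Id3 at 403 ± 79.0 TPM (SD, n = 2), and 14 were higher in replicate 2 and 2 lower, with a median log2 ratio of 0.29 (30.3% of all genes in each direction). Most of these genes are also active outside muscle. Of 9 surface genes of myoblasts and progenitors 8 were detected, led by Notch3 at 49.1 ± 13.4 and Fgfr4 at 35.5 ± 4.48 TPM (SD, n = 2), with 4 higher in replicate 2, 0 lower and a median log2 ratio of 0.09 (30.3% of all genes in each direction).

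All 21 target genes of the myogenic factors were detected, led by the actins Actc1 at 1132 ± 21.1 and Acta1 at 670 ± 22.9 TPM (SD, n = 2). In replicate 2, 9 were higher and 10 lower, beside 30.3% of all genes in each direction, with a median log2 ratio of 0.02 and a range from -1.23 to 0.32. Chosen after their values were seen, Tnnt2 (log2 ratio -1.23) and the embryonic myosin Myh3 (-0.80) were at the low end, and the fusion gene Mymk (0.32) was at the high end. The targets thus went in both directions, and no link between them and the 9 genes was tested.

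Markers of other tissues also differed between the libraries, again beside 30.3% of all genes called in each direction. Epidermal markers, led by Krt5 and Krt14, summed to 990.5 TPM in replicate 1 and 677 in replicate 2, with 4 of 5 lower and 0 higher. Chondrocyte markers, led by Col2a1 and Matn1, summed to 2225 and 2596 TPM, with 5 of 6 higher and 1 lower. Endothelial markers, led by Cdh5 and Pecam1, had 3 of 4 lower and 1 higher, erythroid markers (Hba-a1, Hbb-bt) 2 of 4 lower and 1 higher, and tendon markers (Kera, Scx) 1 of 4 in each direction. Schwann precursor markers (Sox10, Erbb3) had 4 of 6 higher and 1 lower, melanoblast markers (Pmel, Mitf) 0 higher and 1 of 6 lower, and spinal neuron markers (Lmx1b, Isl1) 1 of 6 higher and 3 lower. The 4 heart markers (Gata4, Myl7 highest) summed to 0.650 and 0.890 TPM, with 0 detected and 1 higher in replicate 2. No marker of these lists was at 0 in both libraries. The edgeR exact test with the common dispersion, which takes the library difference as noise, called 0 genes of any list. Their part in the difference of the 9 genes between the libraries was not tested.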

How the data were processed

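The authors deposited, for each library, a gene and a transcript table on mm10 with annotation M4, per the text file deposited with them; the program that made them is not stated. Per the file headers, the deposited values are expected counts (reads estimated per gene), TPM, posterior mean TPM, bounds of a credibility interval of TPM (a signal on the TPM scale), and each transcript's percent of its gene. Libraries are stranded per the labels, but whether strand was used in counting is not stated.

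GENCODE M21, which is on that assembly (GRCm38), gave names and coordinates, joined on gene identifiers without version; 884 of 43346 rows did not match. Other rows (3.73% and 4.30% of counts) entered neither library sizes nor tests. Detected means at least 1 TPM in both libraries.

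An intercept-only limma 3.58.1 fit (eBayes, trend) on log2(TPM + 1) ran over genes averaging 1 TPM or more plus the 9 genes. Pairs used the moderated variances of both genes as if measured apart; intervals were not adjusted. Expected counts were rounded, and genes with at least 10 in total entered an exact two-sided conditional binomial test with TMM library sizes (edgeR 4.0.16; factors 1.01 and 0.993), Benjamini-Hochberg over all genes, threshold 0.05; log2 ratios used a prior count of 0.5. Intervals on counts cover counting error only. The binomial test was checked on simulated counts that held counting error only, and the limma interval on simulated independent values of equal spread. Neither check covers the spread between these libraries. DESeq2 1.42.0 size factors were an alternative. The 9 genes, the 14 lists and the tests were chosen with earlier results of these data known. Genes were named by rule: all 9, the 2 highest of each list and chromosomal neighbours, some by name only and neighbours near 0 not at all; 1 other gene of the rule is not reported here. Further genes are marked or belong to the paralogue and neuron lists.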

Additional observations from a re-analysis of the deposited data

How the results depend on the processing

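In CPM, which keeps transcript length in the value, all 8 neighbouring pairs differed beyond the spread, and 2 pairs turned: Myf5 over Six4 became -1.20 and Myf6 over Lbx1 -0.74 (log2). Six4 has the longer transcript of its pair and Lbx1 of its own, so these values do not order the levels per length. With intervals widened for 8 pairs 3 differed, and 2 with intervals widened for 36 pairs, which was added after seeing the data. Posterior mean TPM or a pseudocount of 0.1 gave the same 5 pairs, and 4 differed without the low-value filter. With the pseudocount of 0.1 the widest step was Lbx1 over Pax3 (2.20), ahead of Msc over Myf5 (2.06). The edgeR exact test, with the common dispersion taken from the same libraries, called 215 genes in place of 12351, and 0 of the 9 members in place of 8. DESeq2 size factors and no minimum count left 8 members called. Leaving out either replicate turned the direction of no pair that differed, and a mean of 2 libraries cannot move by more than its SD when 1 is left out. Posterior mean TPM moved no mean level by more than its SD. With 114 and 126 counts, depth limits Pax3 and its transcript shares most.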

Other observations

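The relatives of the 9 genes in their own families were read as a list of 14 paralogues, of which 5 reached 1 TPM in both libraries. Among the homeobox paralogues, Six5 had 85.8 and 128 TPM and Six2 24.9 and 39.0 TPM in replicates 1 and 2, both above Six4 in each library. Six3 and Six6 had 17 and 4 and 2 and 0 counts. Among the Pax genes, Pax1 and Pax9, known from the skeleton and connective tissue, had means of 9.24 ± 1.44 and 9.18 ± 3.25 TPM (SD, n = 2), above Pax7 in both libraries. Pax6 had 0.360 and 0.300 TPM, Pax2 8 and 17 counts, Pax5 2 and 5, Pax8 0 and 9, and Pax4 0 in each. Taking 3 counts as an approximate 95% upper bound for a count of 0, the bounds for Pax4 were 0.0272 and 0.0290 CPM. Tcf21, the close relative of Msc, had 0.56 and 0.14 TPM from 43 and 10 counts, so Msc was the higher of that pair in both libraries. Lbx2 had 16 and 24 counts. Of the 10 paralogues with enough counts to test, 5 were higher and 2 lower in replicate 2 (exact binomial, adjusted over all genes), where 30.3% of all genes tested were called in each direction.

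Of the genes lying next to the 9 on the chromosome, Ppfia4, 4235 bases from Myog, had 26.9 and 31.8 TPM, Mnat1, 10261 bases from Six4, had 26.0 and 17.4 TPM, and Eya1, the nearest annotated gene on the lower side of Msc and 443111 bases from it, had 4.81 and 8.01 TPM. Kcnc1 beside Myod1, Sgpp2 beside Pax3, Ptprq beside Myf6 and Tas1r2 beside Pax7 had means of 0.280, 0.635, 0.495 and 0.0350 TPM.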
